A study of Macaca mulatta with 136 samples.

Results

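The pigmented layers beneath the retina were compared between the fovea and the nasal location of the same eyes, in 8 of the 32 libraries of the series. These were the 4 RPE-Choroid Fovea and the 4 RPE-Choroid Nasal libraries, chosen by their labelled tissue and location. Each came from a 2 mm postmortem punch of the retinal pigment epithelium (RPE) and choroid of an adult rhesus macaque. The 4 eyes were the right (OD) and left (OS) eye of 2 animals, RM03 and RM04, so that fellow eyes shared an animal. No treatment of the animals is named. Unless the eye was fitted as a block, p-values measure the spread between punches of a tissue, with the punches of an eye taken as independent. They do not measure the spread between animals. By the labels the groups differed only in the location and in the punch number tied to it. Any order of sampling behind that number cannot be told apart from the location. Every library of both groups was sequenced on the same 2 flow cells, in 5 lanes. The 8 libraries held between 45212889 and 60064494 estimated counts. In this text the values of a gene are CPM, the share of a library's counts scaled to a fixed total with TMM factors, and are given in the order RM03 OD, RM03 OS, RM04 OD and RM04 OS.

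The RPE is a single pigmented epithelium that recycles visual pigment, engulfs shed photoreceptor outer segments and moves ions, water and nutrients between the choroid and the photoreceptors. The choroid below it is a vascular bed with arterioles, a fenestrated capillary layer, pericytes, fibroblasts, melanocytes, nerves and resident leukocytes. At the fovea this tissue serves the cone-rich centre of vision, in the region affected by macular degeneration. A punch holds all of these cells together, so that fewer cells of a type and less RNA per cell cannot be told apart.

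Defining markers of RPE were high in all 8 libraries. Of 7 RPE markers (RPE65, RLBP1, LRAT, RGR, BEST1, TTR and RDH5), 6 were analysed, and their mean level was 10.08 to 11.33 log2 CPM. The mean of 5 markers listed for melanocytes (TYR, TYRP1, DCT, PMEL and EDNRB) was 9.37 to 9.68 log2 CPM at the fovea and 8.88 to 9.59 at the nasal location. The study names PMEL among known RPE genes, so this mean does not single out melanocytes. Markers of endothelium, at 7.67 to 8.29, of smooth muscle, at 8.24 to 9.93, and of fibroblasts, at 8.03 to 8.99, were also present throughout. The RM04 OD foveal library stood apart in its photoreceptor RNA. Its 7 rod markers added up to 386 CPM, while their sum ranged from 17.4 to 386 CPM over the foveal and from 21.4 to 121 CPM over the nasal libraries. They averaged 5.24  log2 CPM there, against 0.72 to 3.65 in the other 7 libraries, and the 5 cone markers averaged 5.08 log2 CPM against 2.48 to 3.24. Neural-retina markers were therefore not at 0 in these punches, and counts are given below with and without that library.

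The main fit called few genes between the locations, and other fits given below called from 0 to 614. Of 15789 genes tested, 57 were called at an adjusted p under 0.05, which is 0.361% (edgeR quasi-likelihood test with the animal as covariate, all 16 RPE/choroid libraries in the fit, Benjamini-Hochberg adjustment). At the fovea 33 genes, or 0.209%, were higher, and at the nasal location 24, or 0.152%. At an unadjusted p under 0.05 there were 1235 genes higher at the fovea (7.82%) and 1214 higher at the nasal location (7.69%). These 2 shares are the background for the counts of list members at that threshold below. In all 57 called genes the 4 eyes changed in the same direction, and in 48 of them the foveal and nasal values did not overlap, against 7.03% of all genes. The calls were made on these same values, so both counts follow largely from the call and are no separate support. Fold changes over 2 were seen in 17 called genes, 7 higher at the fovea and 10 at the nasal location, and the median called log2 fold change was 0.54 among foveal genes and -0.83 among nasal genes. Over all genes the median size of the log2 fold change was 0.16, close to its median standard error of 0.15.

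**Figure D1:**
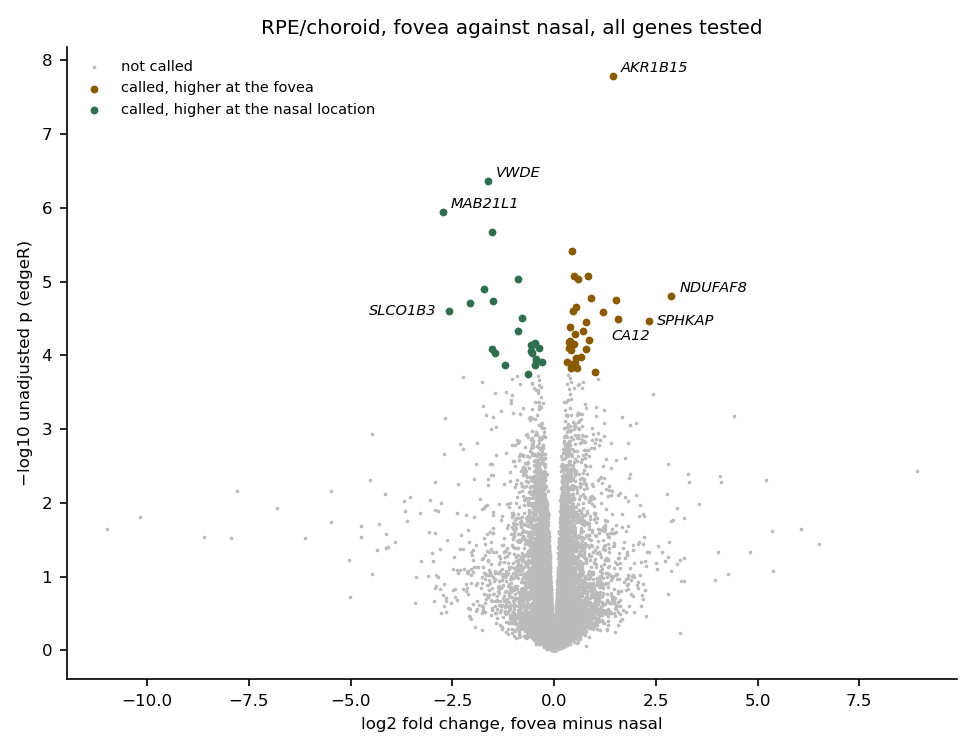
Each point is 1 of the 15789 genes tested in RPE/choroid, with the log2 fold change (fovea minus nasal) on the x axis and the −log10 unadjusted p of the edgeR test on the y axis. The 57 called genes are coloured, 33 on the foveal and 24 on the nasal side, and none of the 17 points beyond ±5 on the x axis was called.

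The number of calls depended on the libraries and the covariate in the fit. With the replicate block, in which the eye replaced the animal, 30 of the 57 genes were called and no others. Leaving out the periphery libraries, which came from another flow cell, gave 614 called genes of 15438, with 312 (2.02%) higher at the fovea and 302 (1.96%) higher at the nasal location, and these included all 57. That setting gave the most calls of the 24 alternative settings, and its calls beyond the 57 are given below as values only. None of those further genes was called with the eye as replicate block. Leaving out all libraries of an eye gave 6 calls without RM03 OD, 10 without RM03 OS, and none without RM04 OD or without RM04 OS, where 1926 and 1188 genes had an unadjusted p under 0.05 (edgeR). Single libraries were also left out, a choice made after the data were seen. Without the RM04 OD foveal library 26 genes were called, 24 of them among the 57. There were 49 calls without the RM03 OD foveal library, 6 without RM03 OS and 2 without RM04 OS, and without the nasal libraries, in the order of the eyes, there were 16, 20, 11 and 10. The direction of each of the 57 genes was the same under all 24 alternative settings, which reuse the libraries that gave the calls.

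More genes were called between the 2 animals than between the locations. Between RM04 and RM03, 5455 genes were called in the same fit, or 34.5% of those tested, and 31 of the 57 location genes were among them. That count sets 1 animal against 1 other, and the libraries of an animal are not independent, so it describes these 2 animals only. It also used all 16 libraries, more than the contrast of the locations, so the 2 counts were not at equal power. Over the 1000 most variable genes, the foveal and nasal library of an eye lay 1.86 ± 0.17 log2 units apart (root mean square difference, SD, n = 4 eyes). Fellow eyes were 1.56 and 1.66 apart at the fovea and 1.54 and 1.80 at the nasal location, and different animals 2.47 to 2.98 and 2.69 to 2.87. The foveal and nasal libraries of 1 eye were thus about as far apart as each was from the perimacula of that eye, at 1.92 ± 0.25 and 1.95 ± 0.30.

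Among the genes higher at the nasal location, the largest difference was in MAB21L1 (ENSMMUG00000005425), a gene required for the development of the eye. It was present at 1.20, 0.770, 2.35 and 1.3 CPM at the fovea and at 7.30, 8.57, 11.7 and 9.34 CPM at the nasal location. Every nasal value exceeded every foveal value, and the nasal level was 6.67 times the foveal one (log2 fold change -2.74, 95% interval -3.46 to -2.02, adjusted p = 0.00605). It was called in 19 of the 24 alternative settings.

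SLCO1B3 (ENSMMUG00000044725) encodes an organic anion transporter best known from hepatocytes. Foveal values were 3.35, 1.35, 9.62 and 8.85 CPM and nasal values 18.5, 17.6, 44.7 and 43.2 CPM. All 4 eyes were higher at the nasal location, RM04 lay above RM03 at both locations, and the groups did not overlap. The log2 fold change was -2.59 (95% interval -3.5 to -1.69, adjusted p = 0.0214). SLCO1B3 has a close paralog, SLCO1B1, so that the assignment of its reads is uncertain.

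VWDE (ENSMMUG00000030278), which encodes a protein with von Willebrand factor D and EGF domains, had 2.03, 1.95, 2.69 and 2.96 CPM at the fovea and 5.32, 5.26, 10.2 and 10.2 CPM at the nasal location. The fellow eyes were nearly equal, and the groups did not overlap (log2 fold change -1.63, 95% interval -2.02 to -1.23, adjusted p = 0.00345). NTNG1 (ENSMMUG00000008197), whose product netrin-G1 is a membrane-anchored guidance protein of axons, had 5.97, 10.2, 12.8 and 10.9 CPM at the fovea. Its nasal values were 18.5, 18.7, 36.7 and 46.6 CPM, all above the foveal ones, and highest in both eyes of RM04. The log2 fold change was -1.52 (95% interval -1.95 to -1.10, adjusted p = 0.00848).

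A group of low-level genes followed the same direction. FYB2, an adaptor of T-cell receptor signalling, had foveal values of 1.93, 1.86, 1.31 and 1.71 CPM and nasal values of 6.41, 4.89, 8.48 and 10.6 CPM, without overlap (log2 fold change -2.08 ± 0.33 SE). ATP13A4, a cation-transporting ATPase, went from 1.65, 2.22, 5.43 and 4.35 CPM at the fovea to 9.25, 8.18, 13.5 and 10.3 CPM at the nasal location, again without overlap (log2 fold change -1.72 ± 0.26). MOXD1, a monooxygenase related to dopamine beta-hydroxylase, was at 4.27, 5.24, 6.72 and 6.10 CPM against 12.3, 10.3, 19.2 and 22.6 CPM, without overlap (log2 fold change -1.51 ± 0.24). The xenobiotic-metabolising monooxygenase FMO1 was also separated between the locations, at 1.24, 1.18, 2.09 and 2.0 against 3.07, 4.14, 4.43 and 5.76 CPM (log2 fold change -1.44 ± 0.27). PRUNE2 was at 2.96, 2.50, 5.47 and 4.57 against 5.37, 8.33, 10.3 and 10.8 CPM (log2 fold change -1.21 ± 0.23). It was higher at the nasal location in each eye, but its groups overlapped. Adjusted p-values of these 5 genes lay between 0.0202 and 0.0408. FMO1 and PRUNE2 had adjusted p-values of 0.0744 and 0.0758 with the eye as replicate block.

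**Figure D2:**
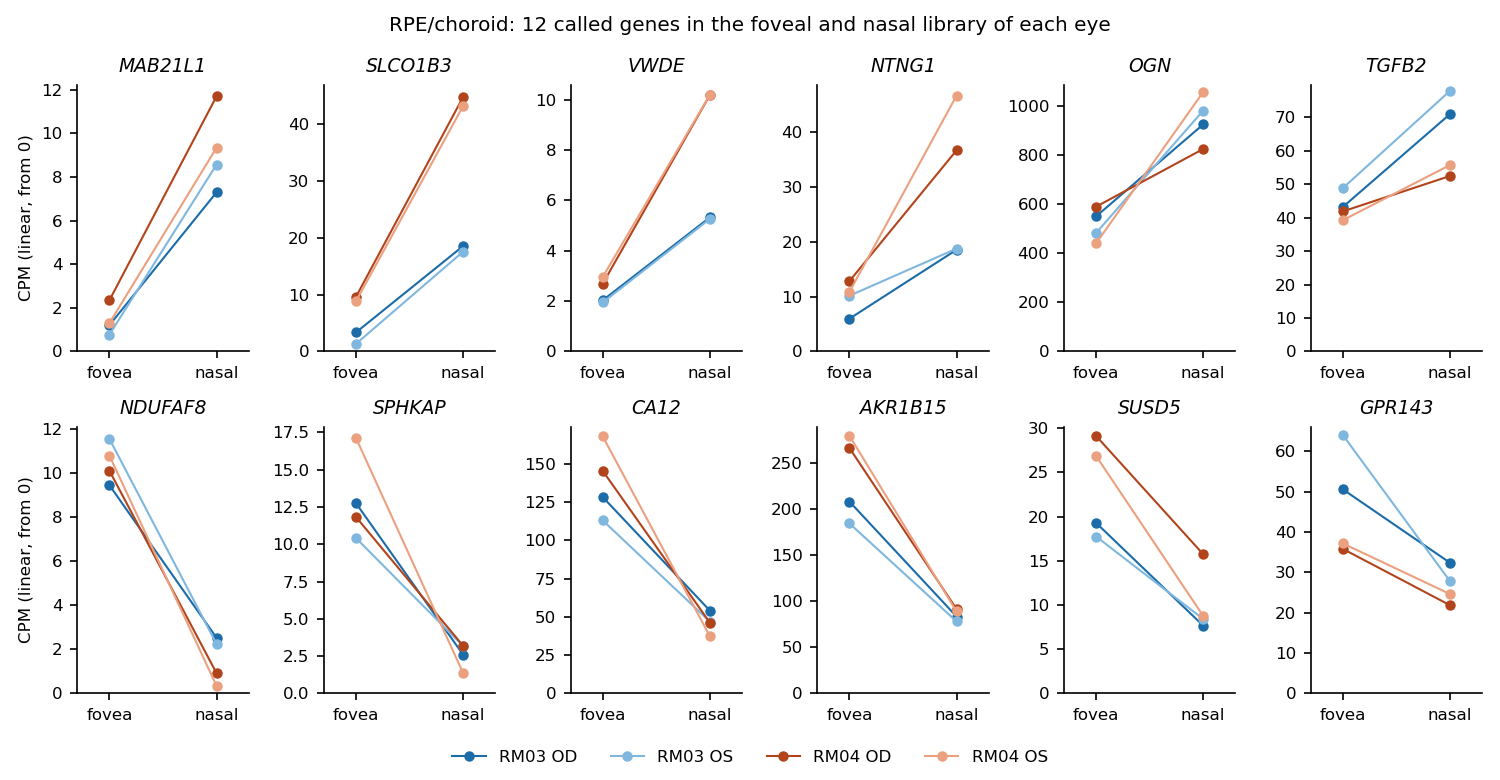
CPM (linear axis from 0) of 12 called genes in the foveal and nasal RPE/choroid library of each of the 4 eyes, joined by a line per eye. The upper row holds 6 genes whose nasal value was the higher in all 4 eyes, such as MAB21L1 (1.40 ± 0.669 against 9.23 ± 1.85 CPM, mean ± SD), and the lower row 6 genes whose foveal value was the higher, such as CA12 (139 ± 23.6 against 46.2 ± 6.85 CPM).

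OGN, TGFB2, MAP3K7, CRISPLD2 and CLIC5 were also called higher at the nasal location. OGN (ENSMMUG00000004634), which encodes osteoglycin, a small leucine-rich proteoglycan of fibrous stroma, was at 551, 483, 591 and 441 CPM at the fovea and 926, 983, 826 and 1058 CPM at the nasal location. All nasal values were above all foveal values, in both animals (log2 fold change -0.88, 95% interval -1.20 to -0.55, adjusted p = 0.0285). TGFB2 (ENSMMUG00000004071), a transforming growth factor beta ligand, had 43.2, 48.8, 41.9 and 39.2 CPM at the fovea against 70.9, 77.9, 52.4 and 55.7 CPM. The groups did not overlap, and the difference was larger in RM03 than in RM04 (log2 fold change -0.56, 95% interval -0.77 to -0.34, adjusted p = 0.0331). MAP3K7, a kinase in the signalling of that ligand family, was higher by a smaller amount (log2 fold change -0.30 ± 0.06), with overlap. CRISPLD2, which encodes a secreted protein, had 139 ± 19.7 CPM at the fovea and 202 ± 13 at the nasal location (mean ± SD, n = 4), without overlap. CLIC5, a chloride intracellular channel protein tied to the actin cytoskeleton, was at 43.2, 46.9, 31.4 and 29.2 against 80.0, 96.2, 41.3 and 48.2 CPM. The nasal values of RM04 were close to the foveal values of RM03, so that the groups overlapped while each eye was higher at the nasal location (log2 fold change -0.78 ± 0.13). OGN, TGFB2, MAP3K7 and CRISPLD2 had adjusted p-values of 0.0649, 0.0744, 0.0744 and 0.0532 with the eye as replicate block.

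GPR183, NCKAP1L, EVI2B and LSP1 were further called nasal genes, chosen for this paragraph after their values were seen. GPR183, an oxysterol receptor that guides B cells, T cells and dendritic cells, had 4.51, 3.87, 5.27 and 5.89 CPM at the fovea and 7.23, 7.55, 9.05 and 12.8 CPM at the nasal location, without overlap (log2 fold change -0.89 ± 0.13, adjusted p = 0.0162). NCKAP1L, the haematopoietic subunit of the WAVE complex that builds actin networks, had 76.3, 66.4, 53.0 and 58.8 against 91.7, 92.7, 79.6 and 84.0 CPM, also without overlap (log2 fold change -0.46 ± 0.09, adjusted p = 0.0380). EVI2B, a leukocyte membrane protein, and LSP1, an actin-binding protein of lymphocytes and neutrophils, were called with log2 fold changes of -0.65 ± 0.13 and -0.58 ± 0.11, and the groups overlapped for LSP1. All 4 genes were higher at the nasal location in all 4 eyes. NCKAP1L, EVI2B and LSP1 had adjusted p-values of 0.0831, 0.0892 and 0.0684 with the eye as replicate block. The mean of the 3 lymphocyte markers was lower at the fovea in 4 of 4 eyes, by -0.42 ± 0.36 log2 CPM (fovea minus nasal, SD). That of the 5 macrophage markers differed by -0.16 ± 0.26, with 2 of 4 eyes higher at the fovea. The part of leukocyte number in the calls of these 4 genes was not tested.

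No member of the leukocyte lists was itself called. On a list of 16 lymphocyte genes, 6 were higher at the nasal location and 0 at the fovea at an unadjusted p under 0.05, where 7.69% of all genes were higher at the nasal location. The median log2 fold change of the list was -0.40, against 0.00 over all genes. PTPRC, which encodes the pan-leukocyte phosphatase CD45, had 36, 24, 43.1 and 44.0 against 45.3, 43.0, 54.3 and 72.3 CPM (log2 fold change -0.55 ± 0.15, adjusted p = 0.118). Without the periphery libraries, NKG7, a granule protein of cytotoxic cells, was called on this list (adjusted p = 0.0478). Of 19 macrophage and microglia genes, 5 were higher at the nasal location and 0 at the fovea at the unadjusted threshold, with a median of -0.21. TREM2, a lipid-sensing receptor of macrophages, had 22.3, 18.5, 15.2 and 15.7 against 25.5, 23.2, 22.3 and 25 CPM (log2 fold change -0.43 ± 0.16, adjusted p = 0.221). Without the periphery libraries it was called, as was FCER1G, the signalling chain of several Fc receptors (log2 fold change -0.26 ± 0.11 with them; adjusted p = 0.0450 and 0.0403 without). The scavenger receptors MSR1 and CD163 had log2 fold changes of -0.63 ± 0.21 and -0.37 ± 0.15. Among 22 complement entries, 3 were higher at the nasal location (C3AR1, C2 and C1S) and 1 at the fovea (CFD) at the unadjusted threshold, against 7.69% and 7.82% of all genes. None was called, although C1S was without the periphery libraries (adjusted p = 0.0478).

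Among the genes higher at the fovea, NDUFAF8 (ENSMMUG00000037732), an assembly factor of mitochondrial complex I, had the largest difference. It had 9.44, 11.5, 10.1 and 10.8 CPM at the fovea and 2.52, 2.25, 0.920 and 0.345 CPM at the nasal location. Foveal values were close to each other and far above every nasal value (log2 fold change 2.88, 95% interval 1.92 to 3.84, adjusted p = 0.0206). SPHKAP (ENSMMUG00000013254), an anchoring protein of protein kinase A, was at 12.7, 10.4, 11.8 and 17.1 CPM at the fovea and 2.59, 3.17, 3.19 and 1.36 CPM at the nasal location. The foveal level was 5.02 times the nasal one, without overlap (log2 fold change 2.33, 95% interval 1.49 to 3.16, adjusted p = 0.0241). Both were also called with the eye as replicate block.

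CA12 (ENSMMUG00000021338) encodes a membrane carbonic anhydrase, an enzyme that interconverts carbon dioxide and bicarbonate at the cell surface. Its foveal values were 128, 113, 146 and 168 CPM and its nasal values 54.2, 47.0, 46.3 and 37.4 CPM. The groups were widely separated in both animals, with a foveal level 2.95 times the nasal one (log2 fold change 1.56, 95% interval 1.00 to 2.12, adjusted p = 0.0241). AKR1B15 (ENSMMUG00000013098), an aldo-keto reductase, had the lowest adjusted p of all genes. It was at 209, 185, 267 and 280.1 CPM at the fovea and 83.6, 78.3, 91.7 and 89.2 CPM at the nasal location. Foveal values differed between the animals, nasal values hardly did, and the groups did not overlap (log2 fold change 1.44, 95% interval 1.17 to 1.71, adjusted p = 0.000255). It was called in 21 of the 24 alternative settings. The files list 3 entries under this symbol, so that reads may have been split among close paralogs. Both were also called with the eye as replicate block.

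GPR143 (ENSMMUG00000006192), the melanosome receptor mutated in ocular albinism, was at 50.6, 64, 35.8 and 37.2 CPM at the fovea and 32.4, 27.9, 21.9 and 24.6 CPM at the nasal location. RM03 was higher than RM04 at the fovea, and all foveal values were above all nasal values (log2 fold change 0.80, 95% interval 0.51 to 1.08, adjusted p = 0.0241). FREM1 (ENSMMUG00000008128), an extracellular matrix protein of epithelial basement membranes, had 68.5, 66.8, 113 and 118 CPM at the fovea. Its nasal values were 43.8, 48.4, 45.2 and 41.7 CPM, below all foveal values, with the larger difference in RM04 (log2 fold change 1.02, 95% interval 0.59 to 1.45, adjusted p = 0.0481). SUSD5, a sushi-domain protein, was also separated, at 19.3, 17.7, 29.1 and 26.8 against 7.66, 8.41, 15.7 and 8.76 CPM (log2 fold change 1.20 ± 0.19). The entry LOC703641, listed with the human symbol NBL1, a secreted antagonist of bone morphogenetic proteins, had 183, 229.5, 119 and 139 against 97.7, 119, 84.1 and 81.6 CPM, higher at the fovea in each eye but with overlapping groups (log2 fold change 0.78 ± 0.14). FREM1 and LOC703641 had adjusted p-values of 0.0847 and 0.0744 with the eye as replicate block.

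The autophagosome protein gene MAP1LC3A was higher at the fovea, at 28.3, 33.6, 22.2 and 25.6 against 20.2, 17.9, 14.1 and 10.0 CPM without overlap (log2 fold change 0.84 ± 0.12, adjusted p = 0.0162). LOC697790, listed with the human symbol MAP1LC3B, another member of that family, was called with a smaller difference (log2 fold change 0.36 ± 0.06, adjusted p = 0.0331). LCORL, a DNA-binding transcriptional regulator, was at 16.4, 15.5, 12.9 and 13.2 against 10.1, 8.55, 6.69 and 6.17 CPM, without overlap. SMIM10L1, a small membrane protein, was at 9.87, 9.64, 7.23 and 8.33 against 5.59, 4.79, 4.39 and 4.66 CPM, also without overlap. KRT10, a keratin of stratified epithelia, was at 20.6, 23.3, 21.3 and 19.2 against 15.1, 13, 12.5 and 10.9 CPM, and its groups did not overlap either. The log2 fold changes of the last 3 genes were 0.90 ± 0.14, 0.85 ± 0.15 and 0.72 ± 0.12. RPS2 (log2 fold change 1.51 ± 0.24) and RPL13 (0.45 ± 0.09), both ribosomal proteins, were called, but the files list 14 and 2 entries under these symbols, and their levels are uncertain. SMIM10L1 and RPL13 had adjusted p-values of 0.0707 and 0.0806 with the eye as replicate block.

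The remaining foveal calls had small differences, with log2 fold changes from 0.31 in ZBTB47 to 0.67 in TRIR. They included RNF10 (242 ± 9.72 against 159.5 ± 17 CPM), the zinc transporter SLC30A5 (41.1 ± 3.73 against 28.4 ± 4.05), the kinase STK11 (80.9 ± 12.1 against 55.6 ± 4.03), the BH3-only protein BMF (86.1 ± 8.02 against 61.9 ± 9.85), the interferon regulatory factor IRF1 (51.5 ± 5.45 against 38.6 ± 4.77) and the tetraspanin CD151 (183 ± 8.52 against 143 ± 13.7), each as mean ± SD with n = 4 and without overlap. GPAA1, KLHL21, ARL2, CDIPT, ARHGEF10L, ZDHHC3, EPB41L3, UBE2G1, ZNF511-PRAP1 and FAM212A completed the foveal calls. With the eye as replicate block the adjusted p was between 0.0590 and 0.103 for ZBTB47, STK11, IRF1, CD151, GPAA1, ARL2, CDIPT, UBE2G1 and ZNF511-PRAP1. The small nasal calls ran from -0.30 in MAP3K7 to -0.49 in ATAD2B and held the acyl-CoA synthetase ACSL1, the ubiquitin ligase HECTD2, the Fanconi anaemia protein FANCC and RNPC3, a protein of the minor spliceosome listed under 2 entries. ATAD2B, ACSL1, HECTD2 and RNPC3 had adjusted p-values of 0.0744, 0.0649, 0.0735 and 0.0684 with the eye as replicate block.

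The levels at the perimacula and the periphery were read beside these differences. The perimacular mean lay between the foveal and the nasal mean in 23 of the 33 foveal genes and in 19 of the 24 nasal genes. A called gene has a wide gap between these means, which leaves more room between them, so that nothing is read from these counts. CA12 was at 139 ± 23.6 CPM at the fovea, 67.9 ± 15.8 at the perimacula, 46.2 ± 6.85 nasally and 18.7 ± 7.07 at the periphery (mean ± SD, n = 4), and NDUFAF8 followed the same order with 10.5 ± 0.903, 6.37 ± 0.949, 1.51 ± 1.04 and 0.856 ± 0.298 CPM. The perimacular and nasal values of CA12 overlapped, and so did the nasal and peripheral values of NDUFAF8. SPHKAP was highest at the perimacula, at 23.5 ± 6.04 CPM, and near its nasal level at the periphery, at 2.88 ± 1.86. MAB21L1 was low at the fovea and perimacula (1.40 ± 0.669 and 1.76 ± 0.472 CPM) and higher at the nasal location and periphery (9.23 ± 1.85 and 15.2 ± 5.84). SLCO1B3 and CLIC5 had their highest means at the nasal location, with peripheral means of 5.70 ± 3.75 and 37.1 ± 7.90 CPM that were near their foveal means. The periphery libraries came from another flow cell, and the location and the flow cell cannot be told apart there.

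**Figure D3:**
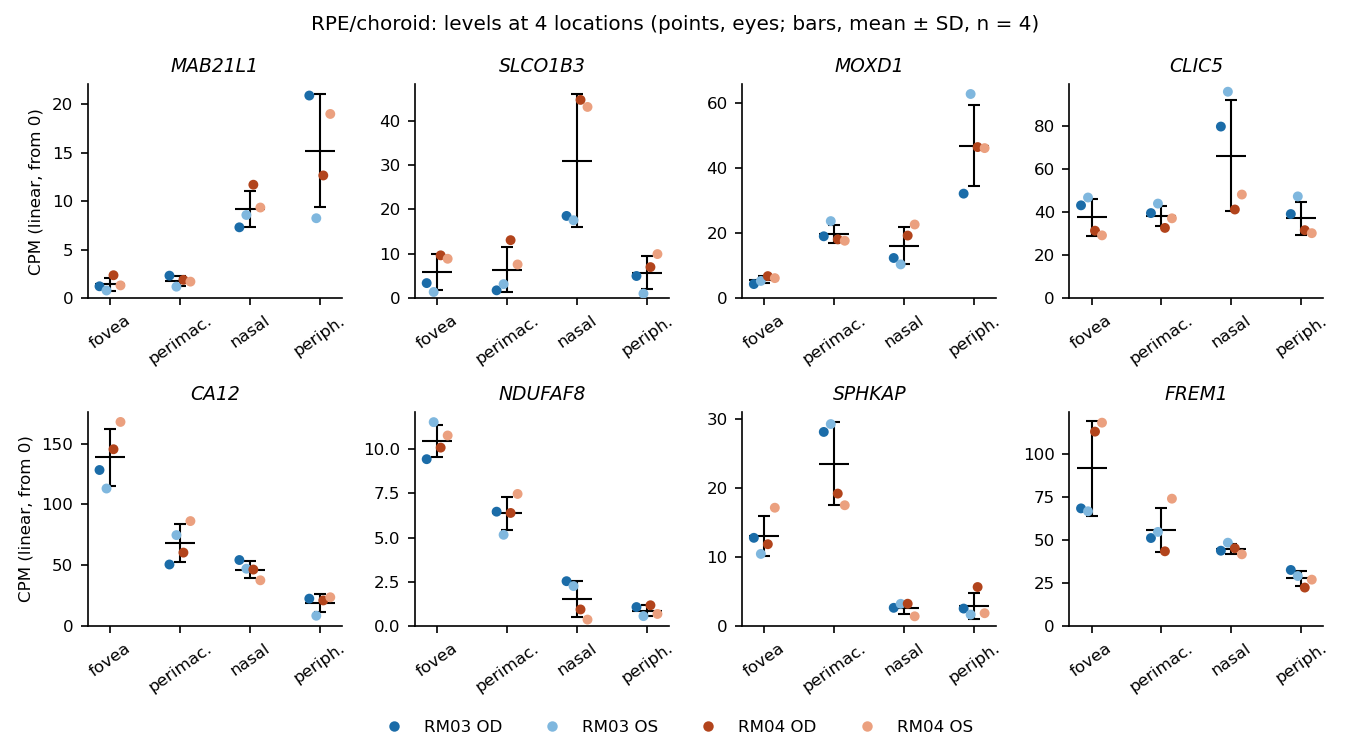
CPM (linear axis from 0) of 8 called genes at the 4 sampled locations of the RPE/choroid, with 1 point per eye and bars for the mean ± SD (n = 4). SLCO1B3 and CLIC5 peak at the nasal location (31 ± 15 and 66.4 ± 26 CPM), SPHKAP at the perimacula (23.5 ± 6.04 CPM), and the means of CA12 run from 139 ± 23.6 CPM at the fovea to 18.7 ± 7.07 at the periphery.

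Neural retina libraries from the same eyes and locations were read for these genes. Between fovea and nasal retina 8091 of 15486 genes were called, or 52.2%, and 56 of the 57 RPE/choroid genes were tested there. Of these, 28 were called in the same direction, 6 in the opposite direction and 22 were not called. Some retinal levels were near 0 CPM, as in FYB2 (mean 0.113 at the fovea and 0.363 nasally) and FMO1 (0.035 and 0.136). Both were called in the same direction. The part of RPE/choroid RNA in the retinal values was not tested. The difference between the tissues was tested over all 32 libraries with an interaction term of location and tissue, an analysis added after the data had been seen, and was called for 27 of the 57 genes, against 27.2% of 16382 genes.

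CA12 changed in opposite directions. Foveal retina held 2.51 ± 0.779 CPM and nasal retina 20.7 ± 1.03 CPM (mean ± SD, n = 4; log2 fold change -3.05 ± 0.41 SE, adjusted p = 2.14e-05), and the tissues differed by 4.65 ± 0.50 on the log2 scale (adjusted p = 3.65e-07). VWDE and PRUNE2, higher at the nasal location in RPE/choroid, were higher at the fovea in retina, with retinal log2 fold changes of 1.07 and 1.32, and ZBTB47 and LOC703641 were also called in opposite directions. MAB21L1 was abundant in retina but level between the locations, at 88.4 ± 2.61 and 87.8 ± 6.80 CPM (log2 fold change 0.02 ± 0.08), and NTNG1 had a retinal log2 fold change of 0.16 ± 0.09. For SLCO1B3 and MOXD1 no difference between the tissues was called (adjusted p = 0.934 and 0.878), with log2 fold changes of -2.64 ± 0.33 and -1.57 ± 0.19 in retina, at retinal nasal levels of 1.22 ± 0.673 and 37.8 ± 6.41 CPM. GPR143 was higher at the fovea in both, with the larger log2 fold change in retina (difference between the tissues -1.12 ± 0.25, adjusted p = 0.00127). Its retinal level was 3.30 ± 0.286 CPM at the fovea and 0.851 ± 0.105 at the nasal location. These levels were far below its means of 46.9 and 26.7 CPM in RPE/choroid, and the part of RPE RNA in them was not tested. SPHKAP was more abundant in retina, at 62.8 ± 12.4 CPM at the fovea and 40.5 ± 9.36 at the nasal location, and its RPE/choroid log2 fold change was 2.39 without the RM04 OD foveal library.

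**Figure D4:**
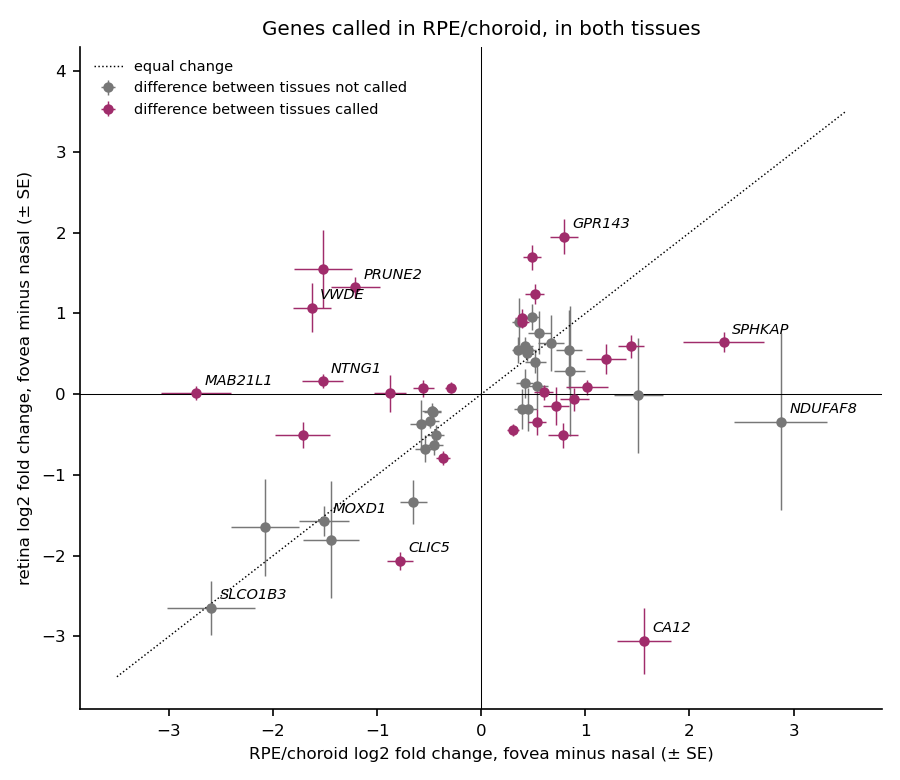
Log2 fold change (fovea minus nasal, ± SE) of the 56 genes called in RPE/choroid and tested in retina, with RPE/choroid on the x axis and retina on the y axis. Points in colour are genes whose difference between the tissues was called, among them CA12 in the lower right and VWDE and PRUNE2 in the upper left, and the dotted line marks equal change.

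No gene of the visual cycle or of RPE identity was called. Of 17 tested entries 1 was higher at the fovea and 1 at the nasal location at the unadjusted threshold, with a median log2 fold change of 0.20. MITF, the master regulator of pigment cells, had 313, 299.8, 489.7 and 520.2 CPM at the fovea against 257, 268, 327 and 332 CPM at the nasal location, higher at the fovea in all 4 eyes but with overlapping groups (log2 fold change 0.44 ± 0.19, adjusted p = 0.280). SERPINF1, which encodes the antiangiogenic factor PEDF, had a log2 fold change of -0.30 ± 0.13 (adjusted p = 0.303). Of 14 melanin and melanosome genes GPR143 was the only one called. DCT, a melanin-synthesis enzyme, was at 31.7, 25.4, 127 and 127 against 13.6, 15.1, 55.8 and 79.8 CPM, higher at the fovea in every eye with RM04 far above RM03 (log2 fold change 0.95 ± 0.23, adjusted p = 0.103, or 0.00834 without the periphery libraries). Of 20 transport entries CA12 alone was called, and CA2, another carbonic anhydrase, and the water channel AQP1 had log2 fold changes of 0.69 ± 0.28 and 1.35 ± 0.60. Among 14 phagocytosis entries, MFGE8, a bridge between outer segments and integrins, had 0.64 ± 0.20, and CD36, a scavenger receptor, -0.66 ± 0.24, both called without the periphery libraries (adjusted p = 0.0402 and 0.0496).

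The vessel-wall lists had positive medians but no called member. All 16 smooth muscle contractile genes had positive log2 fold changes, from 0.17 to 0.96 with a median of 0.38, and 5 of the 16 passed an unadjusted p under 0.05, against 7.82% of all genes, but none was called. MYLK, myosin light chain kinase, had 1095, 1475, 819 and 754 CPM at the fovea against 755, 680.4, 676 and 397 CPM, where the lowest foveal value fell just under the highest nasal one (log2 fold change 0.70 ± 0.20, adjusted p = 0.144). ACTA2, smooth muscle actin, had 2518, 2880.3, 2384 and 1961 against 1783, 1341, 1775 and 947 CPM, without overlap (log2 fold change 0.73 ± 0.32, adjusted p = 0.300). The 5 smooth muscle markers were higher at the fovea in 4 of 4 eyes, by 0.65 ± 0.37 log2 units (SD). The 9 pericyte genes lay on both sides, from -0.32 to 0.76 with a median of 0.12. CSPG4, the NG2 proteoglycan, was the highest of them, at 116, 144, 127 and 141 against 71.6, 65.9, 102 and 75.9 CPM, without overlap (log2 fold change 0.76 ± 0.19, adjusted p = 0.108). The mean of 4 pericyte markers (PDGFRB, RGS5, ABCC9 and KCNJ8) differed by only 0.07 ± 0.21 log2 units (SD). Their summed level was lower at the fovea, at 844 to 938 CPM against 943 to 1083 CPM. MYLK, ACTA2, CSPG4 and MCAM, an adhesion molecule of the vessel wall, were called without the periphery libraries (adjusted p = 0.0345, 0.0433, 0.00886 and 0.0351).

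No endothelial gene was called. Of 23 entries 4 were higher at the fovea at the unadjusted threshold, against 7.82% of all genes, and none at the nasal location, with a median of 0.08. These were SOX17, an arterial transcription factor (log2 fold change 0.76 ± 0.25), the adhesion molecule PECAM1 (0.35 ± 0.13), the tight-junction protein CLDN5 (0.65 ± 0.25) and RGCC (0.66 ± 0.26). Only CLDN5 had groups that did not overlap, at 10.9, 10.8, 13 and 11.9 against 6.75, 5.46, 10.5 and 7.66 CPM. CLDN5 and RGCC were called without the periphery libraries (adjusted p = 0.0258 and 0.0278). None of 18 genes of the VEGF and angiopoietin pathways was called.

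The fibroblast list had a negative median. Of its 15 genes OGN was called, and OGN and TCF21 passed the unadjusted threshold, both higher at the nasal location, with a median of -0.23, and the mean of 5 fibroblast markers was lower at the fovea in 4 of 4 eyes, by -0.30 ± 0.16 log2 CPM (fovea minus nasal, SD). TCF21, a transcription factor of mesenchyme, had a log2 fold change of -1.07 ± 0.36. Of 29 collagen genes none was called, with 5 higher at the fovea and 3 at the nasal location at the unadjusted threshold, against 7.82% and 7.69% of all genes. COL9A2, a chain of cartilage and vitreous collagen, was at 4.39, 4.68, 46.2 and 52.3 CPM at the fovea and 34.5, 47.7, 93.4 and 102 CPM at the nasal location. It was higher at the nasal location in all 4 eyes, by a larger factor in RM03, while RM04 was higher at both (log2 fold change -1.89 ± 0.48, adjusted p = 0.108, or 0.0200 without the periphery libraries).

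Genes that set up the nasal-temporal and dorsal-ventral axes of the embryonic eye are known from the retina, and they were read here in the layers below it. None of 25 patterning genes was called, with 5 higher at the fovea, 4 higher at the nasal location at the unadjusted threshold and a median of -0.02. At that threshold 7.82% of all genes were higher at the fovea and 7.69% at the nasal location. The retinoic acid enzyme ALDH1A1 was at 375, 328, 304 and 269 CPM against 441, 418, 384 and 444 CPM, without overlap (log2 fold change -0.41 ± 0.11, adjusted p = 0.110). ALDH1A3, which makes the same signal, was at 42.5, 46.9, 92.5 and 80.5 against 74.2, 81.9, 236 and 256 CPM, higher at the nasal location in each eye, with RM04 above RM03 (log2 fold change -1.17 ± 0.31, adjusted p = 0.118). The ephrins EFNB1 and EFNB2 had log2 fold changes of 0.37 ± 0.10 and -0.40 ± 0.11. All 4 of these genes were called without the periphery libraries, with adjusted p-values of 0.0491, 0.0131, 0.0388 and 0.0315, and none with the eye as replicate block.

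FOXD1, a transcription factor of the temporal retina, had 5.88, 5.88, 6.33 and 6.33 against 3.09, 4.16, 3.66 and 3.82 CPM without overlap (log2 fold change 0.73 ± 0.23, adjusted p = 0.161), while in retina it was at 5.95 ± 2.71 CPM at the fovea and 0.0728 ± 0.0481 at the nasal location (adjusted p = 3.60e-07). Of the regional homeobox genes PRRX1, which marks mesenchyme, came closest to a call, at 43.9, 39.9, 19.5 and 24.5 CPM at the fovea against 63.2, 102, 37.3 and 58.5 CPM (log2 fold change -1.05 ± 0.22, adjusted p = 0.0628). MEIS1 and ZFHX4 had log2 fold changes of -0.93 ± 0.31 and -0.75 ± 0.21. PRRX1 and MEIS1, but not ZFHX4, were called without the periphery libraries.

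Growth-factor lists held members on both sides. Besides TGFB2, none of 34 genes of the BMP, TGF-beta and activin pathways was called, with a median of -0.01. BMP6 was at 41.7, 34.3, 41.0 and 39.7 CPM at the fovea and 26.1, 23.2, 16.1 and 10.2 CPM at the nasal location, without overlap (log2 fold change 1.14 ± 0.29, adjusted p = 0.106). BMP7, a ligand of the same family, lay on the other side, at 57.2, 51.2, 97.7 and 101 against 149, 139, 129 and 108 CPM, without overlap (log2 fold change -0.84 ± 0.31, adjusted p = 0.230). ID1, a target of BMP signalling, had a log2 fold change of 0.68 ± 0.19. The 3 genes were called without the periphery libraries (adjusted p = 0.0304, 0.0497 and 0.0200). Of 40 Wnt and Norrin genes none was called, and of 36 FGF, EGF and neuregulin entries none was, with EGF at -1.0 ± 0.23 and HBEGF at 0.43 ± 0.12. Without the periphery libraries EGF, HBEGF and, on the Wnt and Norrin list, LGR6 were called (adjusted p = 0.0437, 0.0446 and 0.0478).

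Genes tied to macular disease did not separate the locations at the adjusted threshold. None of 24 macular disease entries was called, and 3 were higher at the nasal location at the unadjusted one, against 7.69% of all genes. ABCA1, a cholesterol exporter, was at 94.6, 72.8, 95.5 and 104 CPM against 117, 128, 109.6 and 118 CPM, without overlap (log2 fold change -0.36 ± 0.12, adjusted p = 0.171), and EFEMP1, a matrix protein mutated in an inherited drusen disease, had -0.50 ± 0.20.

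The largest list medians were those of the cone and the axon and choroidal neuron lists, and the RM04 OD foveal library described above was the highest for GNGT2 and NEFM. Of 17 axon and choroidal neuron genes none was called, with a median log2 fold change of 0.70, and of 11 cone genes none was, with a median of 1.33. At the unadjusted threshold 4 genes of each list were higher at the fovea and 0 at the nasal location, against 7.82% and 7.69% of all genes. Without the RM04 OD foveal library these medians were 0.55 and 0.37. The median of 11 rod genes was 0.60, with no gene under the unadjusted threshold, and -1.06 without that library. The mean of the 7 rod markers given above differed by -0.15 log2 CPM (fovea minus nasal), with 2 of 4 eyes higher at the fovea, and by -1.09 without both libraries of the RM04 OD eye. The rod list median thus changed sign with that library, and the marker mean was negative with and without that eye. The mean of the 5 cone markers differed by 0.74, or by 0.12 without that eye. GNGT2, a cone transducin subunit, was at 3.92, 4.47, 57.4 and 12.5 CPM at the fovea and 4.02, 5.22, 6.64 and 5.09 CPM at the nasal location. Its RM04 OD foveal value exceeded all others, 2 of 4 eyes were higher at the fovea, and the log2 fold change of 1.71 ± 0.73 was 0.41 without that library. NEFM, a neurofilament subunit, was at 11.7, 8.44, 47.4 and 17.7 against 2.48, 7.72, 4.80 and 5.16 CPM, without overlap, and its log2 fold change of 2.06 ± 0.89 was 1.33 without that library. For SNCG, a synuclein of axons, the values were 17.7, 20.3, 25.8 and 14.8 against 10.2, 12.8, 10.9 and 6.56 CPM, again without overlap (log2 fold change 0.98 ± 0.36, adjusted p = 0.220, or 0.0450 and called without the periphery libraries). Foveal retina held 3647 ± 312 CPM of NEFM (mean ± SD, n = 4). The part of retinal RNA in these values was not tested.

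The remaining lists of cell types and functions held no called gene, among them those of RPE junctions, melanocytes, sclera, mast cells, erythroid cells and the inner retina. Of 24 cytoskeleton and contractility entries 5 were higher at the fovea and 0 at the nasal location at the unadjusted threshold, against 7.82% and 7.69% of all genes. Among the 5 was FLNA, which encodes the actin crosslinker filamin A, at 2071, 2516, 1577 and 1671 CPM at the fovea and 1580.3, 1446, 1476 and 992 CPM at the nasal location (log2 fold change 0.50 ± 0.15, adjusted p = 0.151, or 0.0447 without the periphery libraries). Of 18 Schwann cell and peripheral myelin genes none passed the unadjusted threshold in either direction, with a median of -0.04. Of 22 immediate early genes 1 passed it on each side, and of 29 glycolysis and hypoxia entries 1 was higher at the fovea. The 18 integrated stress and heat shock genes had 1 higher at the fovea, the small heat shock protein gene HSPB1 (log2 fold change 0.61 ± 0.14, called without the periphery libraries with an adjusted p of 0.0297), and 3 higher at the nasal location. Of 20 matrix protease and inhibitor genes 3 were higher at the fovea, and of 27 chemokine and cytokine genes 2 were higher on each side. Of these lists, ACTN2, PFKP, JUND and ADAMTS1 were also called without the periphery libraries (adjusted p = 0.0478, 0.0258, 0.0258 and 0.0442). Among 20 retinoic acid genes and 17 Eph and ephrin genes, which share ALDH1A1, ALDH1A3, EFNB1 and EFNB2 with the patterning list, 2 and 3 were higher at the fovea and 3 and 2 at the nasal location.

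**Figure D5:**
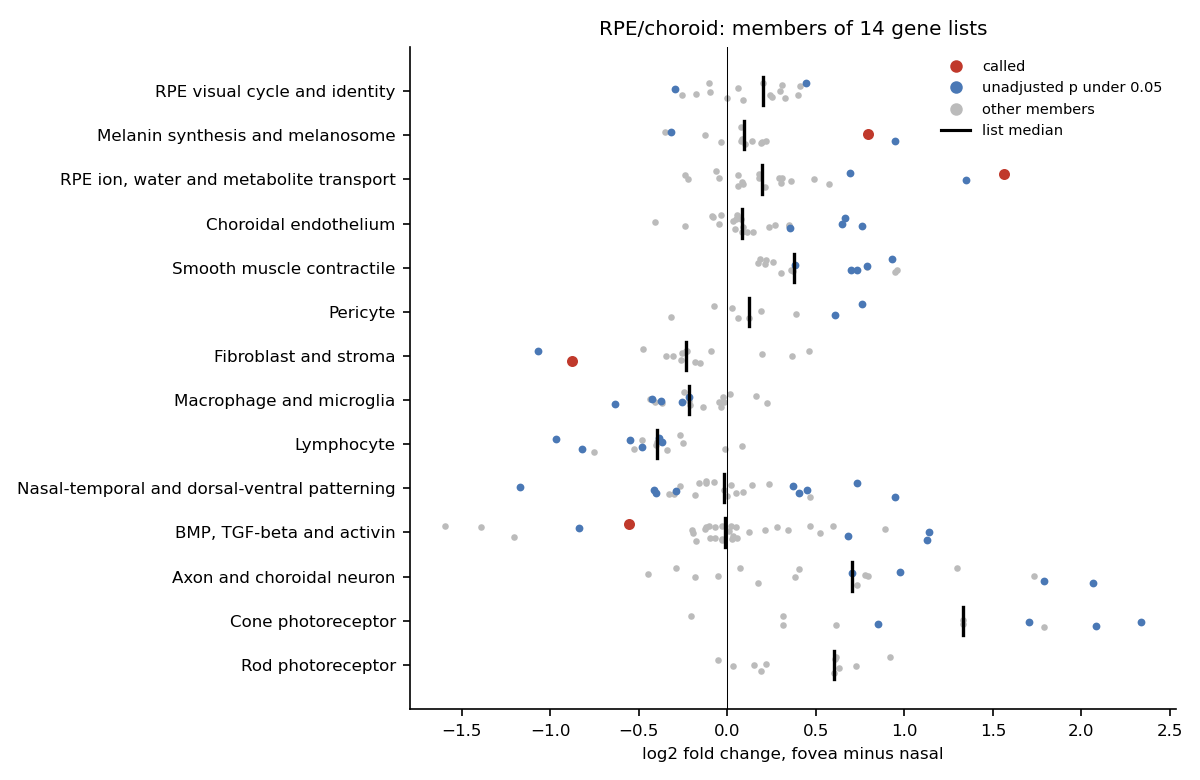
Log2 fold change (fovea minus nasal, x axis) of each member of 14 gene lists (y axis) in RPE/choroid. A vertical bar marks the median of a list, and the called genes GPR143, CA12, OGN and TGFB2 are the large points. The smooth muscle members all lie to the right of 0 and most lymphocyte members to the left.

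Genes that earlier comparisons had called between the fovea and the perimacula in these libraries, or that the study had picked out beside single-cell data, were also read here. They rest partly on the same foveal libraries and are not independent evidence. Of 7 fovea-against-perimacula genes MOXD1 was called, and MYO1E, an unconventional myosin, had 76.9, 79.6, 86.9 and 83.3 against 65.1, 62.5, 75.6 and 57.7 CPM, without overlap (log2 fold change 0.32 ± 0.09, adjusted p = 0.118, or 0.0450 without the periphery libraries). Of 11 entries for the single-cell genes none was called, and 4 were higher at the fovea at the unadjusted threshold, against 7.82% of all genes. SULF1, an extracellular heparan sulfatase, was at 1768, 1766, 2536 and 2662 CPM at the fovea and 1487, 1612, 1330.4 and 1087 CPM at the nasal location, without overlap and with the larger difference in RM04 (log2 fold change 0.64 ± 0.19, adjusted p = 0.151). WFDC1, a secreted protein with a protease-inhibitor fold, was at 40.5, 50.4, 40.3 and 35.2 against 30.6, 20.2, 32.2 and 22.1 CPM, without overlap (log2 fold change 0.67 ± 0.24, adjusted p = 0.211, or 0.0450 without the periphery libraries). CXCL14, a chemokine, was at 60.7, 57.1, 103 and 102 against 50.1, 73.0, 19.8 and 14.2 CPM. In RM04 its foveal values were far above the nasal ones, whereas in RM03 the eyes went in opposite directions (log2 fold change 1.31 ± 0.53, adjusted p = 0.259).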

How the data were processed

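The authors assigned the reads of each lane to Mmul_8.0.1 transcripts with Salmon 0.13, per the submitters' processing notes, and summed them to genes with tximport. The authors deposited estimated counts per gene (expected counts), scaled for transcript length, in a column headed TPM whose totals differ between lanes, which a TPM total does not. The strand setting is not given in the sources used here.

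The 40 lane tables of the 8 foveal and nasal libraries, and those of the other 24, were summed per library and rounded to whole numbers, and 10 entries with a repeated identifier were dropped. Each library had 5 lanes on 2 flow cells, and the periphery libraries had 2 lanes on another. The totals of the 8 libraries, 45212889 to 60064494, limit the precision of low genes. The quasi-likelihood test of edgeR 4.0.16 (R 4.3.3, limma 3.58.1) was run on 16 RPE/choroid libraries with location and animal as terms (11 residual degrees of freedom), normalization by TMM, a low-count filter (filterByExpr, minimum count 10) and Benjamini-Hochberg adjustment, and genes were called at an adjusted p under 0.05. Levels are TMM-scaled CPM and list levels use log2 CPM with a prior count of 2. The pipeline was tested on simulated data. Tables and plots used Python 3.11.15, numpy 2.4.6, pandas 2.3.3, scipy 1.17.1 and matplotlib 3.10.9.

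Replicate numbers mark the eye, so the same number pairs libraries of 1 eye. Deviations from the location means correlated at 0.420 to 0.570 between libraries of an eye and at 0.450 to 0.541 between fellow eyes. An exact permutation test of 4 against 4 could not go below 0.0286. Alternatives were DESeq2 1.42.0, RLE normalization, 2 other filters on low counts, the eye as block, no covariate, fewer locations, each flow cell, each animal, and leaving out each eye or, chosen after the data were seen, each library. The tissue interaction was added then too.

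The members and the gene lists were chosen with earlier results of these data known. Named genes are the 15 called genes with the largest log2 fold change in each direction, called list members, and up to 4 members of a list with the lowest p. Other called genes, and genes named beyond these, were chosen after their values were seen. RDH5, KIT, MLANA, SOX10, GNAT1, PDE6G and PDE6H were not analysed here, and some results are not reported here.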

Additional observations from a re-analysis of the deposited data

Results flagged for a closer look

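In 6 of the groups of 4 eyes, among 258 groups examined for the genes named, 1 eye stood apart from the other 3 by more than Dixon's 95% limit, which chance alone exceeds in about 1 of 20 groups. At the fovea the RM04 OS library was highest for CRABP1, a retinoic acid binding protein, at 0.774 CPM, and for GPAA1, a subunit of the enzyme that attaches glycolipid anchors, at 100.5 CPM. The RM04 OD foveal library was highest for the cone gene GNGT2, at 57.4 CPM, and the RM03 OS foveal library for NR2F1, a nuclear receptor of regional patterning, at 32.3 CPM. At the nasal location RM04 OD was highest for SUSD5, at 15.7 CPM, and RM04 OS was lowest for ZNF511-PRAP1, at 6.54 CPM.

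In 27 of the 57 genes the change between fovea and nasal location differed between RPE/choroid and retina, by a test of the difference itself (edgeR interaction term, adjusted p under 0.05). The differences given below, for those reported here, are the RPE/choroid log2 fold change minus the retinal one, and the values were chosen for a call in RPE/choroid. They were positive for CA12 (4.65), SPHKAP (1.72), LOC703641 (1.33), CLIC5 (1.32), LCORL (0.99), FREM1 (0.97), SLC30A5 (0.92), KRT10 (0.90), AKR1B15 (0.88), SUSD5 (0.80), ZBTB47 (0.78), RNF10 (0.61) and RNPC3 (0.46). They were negative for MAB21L1 (-2.71), VWDE (-2.66), PRUNE2 (-2.49), NTNG1 (-1.65), ATP13A4 (-1.18), EPB41L3 (-1.17), GPR143 (-1.12), OGN (-0.87), UBE2G1 (-0.69), TGFB2 (-0.59), ARL2 (-0.51), KLHL21 (-0.47) and MAP3K7 (-0.34). A positive difference in a gene that was higher at the nasal location, as in CLIC5 and RNPC3, means a larger nasal excess in retina.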

How the results depend on the processing

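The 57 called genes kept their direction under all 24 alternative settings, which reuse the libraries that gave the calls. Their calls did not hold equally, and each gene was called in 6 to 21 of the 24 (median 9). All 57 were called again with DESeq2, RLE normalization, at least 10 counts in every library and without the periphery, 55 in the 8 libraries alone, and 54 and 55 on the flow cells HLKJ7BBXX and HLKMNBBXX. The number of genes called rose to 490 with DESeq2, 346 in the 8 foveal and nasal libraries alone, 614 with the perimacular libraries added, and 445 and 379 on HLKJ7BBXX and HLKMNBBXX. It was 61 with RLE normalization, 49 with no filter and 78 with at least 10 counts in every library. It fell to 4 without a covariate, to 0 in RM03 alone (969 at an unadjusted p under 0.05 with edgeR) and to 16 in RM04 alone. Leaving out an eye gave 0 to 10 calls, with none without RM04 OD or RM04 OS, and leaving out a single library gave 2 to 49, with the lowest count without the RM04 OS foveal library. The fitted pairing of libraries by eye, as a replicate block, gave 30 calls, all among the 57, and changed none of the 34 retinal calls.

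Only 2 log2 fold changes of named genes turned their sign: in RM03 alone that of CXCL14 was -0.052 and that of GNGT2 -0.13. Over all genes tested in place of the 1000 most variable, the foveal and nasal library of an eye lay 0.697 log2 units apart, since this includes the less variable genes, and leaving out an eye moved the main distance from 1.79 to 1.91.

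The median adjusted p of the 57 genes was 0.0331 with edgeR, and fellow eyes of 2 animals do not give the spread between animals. Where values lie under 1 CPM, as for the nasal NDUFAF8 values of RM04, depth limits the fold change. The periphery libraries, which shared in the estimate of spread, came from another flow cell.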

Other observations

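The largest fitted differences were not called. Of 17 genes with a log2 fold change beyond 5 in either direction, none was called by edgeR, and 12 were immunoglobulin variable segments, 10 of them higher at the nasal location and 2 at the fovea. These genes were chosen after their values were seen. In each of the 12 a single library held between 46.4% and 99.9% of the CPM over the 8 libraries, with a median of 90.7%. IGKV4-1 was at 88.7 CPM in the RM03 OS nasal library and under 1 CPM in the other 7, and IGLV1-47 was at 17.4 CPM in the RM03 OD nasal library. Over all 95 immunoglobulin variable entries tested none was called, 22 (23.2%) had an unadjusted p under 0.05, against 15.5% of all genes tested, 18 of them higher at the nasal location and 4 at the fovea, and the median log2 fold change was -1.28. Segments of this kind share much sequence, and the assignment of their reads is uncertain.

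LOC701772 was at 79.6 CPM in the RM04 OD and 14.9 CPM in the RM04 OS foveal library and at most 0.107 CPM in the other 6 libraries (log2 fold change 8.91, adjusted p = 0.141).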
